A study of Mus musculus with 8 samples.

Results

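Transcripts of 37 dermal matrix and fibroblast genes were followed in the separated back skin epithelium of Foxi3 null and wild-type mouse embryos. The genes form a named list of collagens, proteoglycans, elastic fibre components, matricellular proteins, receptors and mesenchymal transcription factors. Each symbol was found as 1 row among the 26165 genes of the arrays, so that all 37 were measured. The embryos were 4 Foxi3 nulls (Foxi3-/-), set against 4 wild-type littermates (Foxi3+/+), all at E15.5, from 4 litters on a C57/Bl6 background. Nulls were recognised by their missing jaw and by genotype, epithelium was freed with dispase, and each array held the RNA of 1 embryo. The null is total, so the dermis of these embryos lacked Foxi3 as well as the epithelium.

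Dermal fibroblasts secrete fibrillar collagens, which fibril-associated collagens and small leucine-rich proteoglycans arrange into fibres and collagen VI links to cells. Fibrillins and fibulins scaffold elastin, and lysyl oxidases crosslink both collagen and elastin. Receptors for platelet-derived growth factors and the factors Twist1, Twist2 and Prrx1 mark the mesenchymal cells of the dermis. Keratinocytes carry keratins in their place, although fibronectin, tenascin-C and some other matrix proteins can be made by epithelial cells too. Foxi3 itself is a forkhead transcription factor of hair placodes.

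Values are RMA log2 intensities, on which a difference of 1 is a doubling. They compare embryos for the same gene and do not rank different genes, and a fold is given from a difference of mean log2 values. Without detection calls, dim values may lie in the background. Sample medians lay between 5.15 and 5.29, and correlations between samples over genes between 0.9845 and 0.9951. Foxi3, the targeted gene, read 8.62, 8.43, 8.45 and 8.19 in Foxi3 null 1 to 4, against 8.96, 9.07, 9.20 and 8.55 in wild type 1 to 4 (limma adjusted p = 1). The groups overlapped, wild type 4 lying below Foxi3 null 1. No source used here says whether its probes lie in the deleted part, and this level does not check the labels. The epithelial identity of the samples was read from keratin genes. Krt5, a basal keratin, was 12.05 in Foxi3 null 2, against 12.02 to 12.07 in the other embryos, and Krt10, a suprabasal keratin, was 12.17 in Foxi3 null 2, against 12.13 to 12.26 in the other embryos. The number of arrays limits the precision, and p-values take the embryos as independent although no embryo is tied to a litter. In such bulk samples, fewer cells of a type and less RNA per cell cannot be told apart.

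No dermal matrix or fibroblast gene passed the test between the groups, and most of their apparent excess in the nulls stood in 1 embryo, Foxi3 null 2. At a limma adjusted p under 0.05, 0 of 37 genes were called, where 0.0115% of all 26165 genes were. Their lowest adjusted p was 1. At an unadjusted p under 0.05 there were 5 of 37 (13.5%), against 3.72% of all genes. Of these, 4 were higher in the nulls (Col14a1, Postn, Fbn2 and Vcan, against 1.69% of all genes) and 1 was lower (Tnc, against 2.03%). The count of 5 moved with single embryos, as did the share of all genes. It was 2 without Foxi3 null 1 (against 3.12% of all genes), 1 without Foxi3 null 2 (3.24%), 1 without Foxi3 null 3 (2.7%) and 8 without Foxi3 null 4 (8.39%). Leaving out a wild-type embryo gave 2 without wild type 1 (3.41%), 2 without wild type 2 (2.98%), 5 without wild type 3 (7.25%) and 5 without wild type 4 (3.11%). With all embryos it was 8 with array weights (6.83%) and 8 with the replicate number as a block (8.94%).

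Across the list, 34 of 37 genes had a null mean above the wild-type mean, where 46% of all genes did. The median difference of the 37, null minus wild type, was 0.30, against -0.0083 over all genes. Without Foxi3 null 2 the genes above 0 numbered 21 of 37, where 49.6% of all genes did so, and the median was 0.019, against -0.0010 over all genes. The mean difference over the 37 was 0.30 with all embryos and 0.054 without Foxi3 null 2. The mean over the 37 genes was 6.67, 7.57, 6.52 and 6.52 in Foxi3 null 1 to 4, against 6.57, 6.50, 6.47 and 6.52 in wild type 1 to 4. Foxi3 null 2 was thus far above the other embryos, and the other null embryos lay close to the wild-type ones.

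In Foxi3 null 2 stood the highest value of 26 of the 37 genes (70.3%), where it held the highest value for 7.72% of all genes. It exceeded the other 7 embryos by more than 1 log2 unit for 13 of 37 (35.1%), against 0.279% of all genes. The excess of Foxi3 null 2 over the mean of the other embryos ran from -0.13 for Tnc to 4.81 for Lum, with a median of 0.68, against -0.030 over all genes. Ranked over all genes by the excess above the next embryo, Lum came at 1 and 13 of the 37 lay among the 100 largest. The remaining genes divided into 13 with an excess from 0 to 1 and 11 with none.

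**Figure D1:**
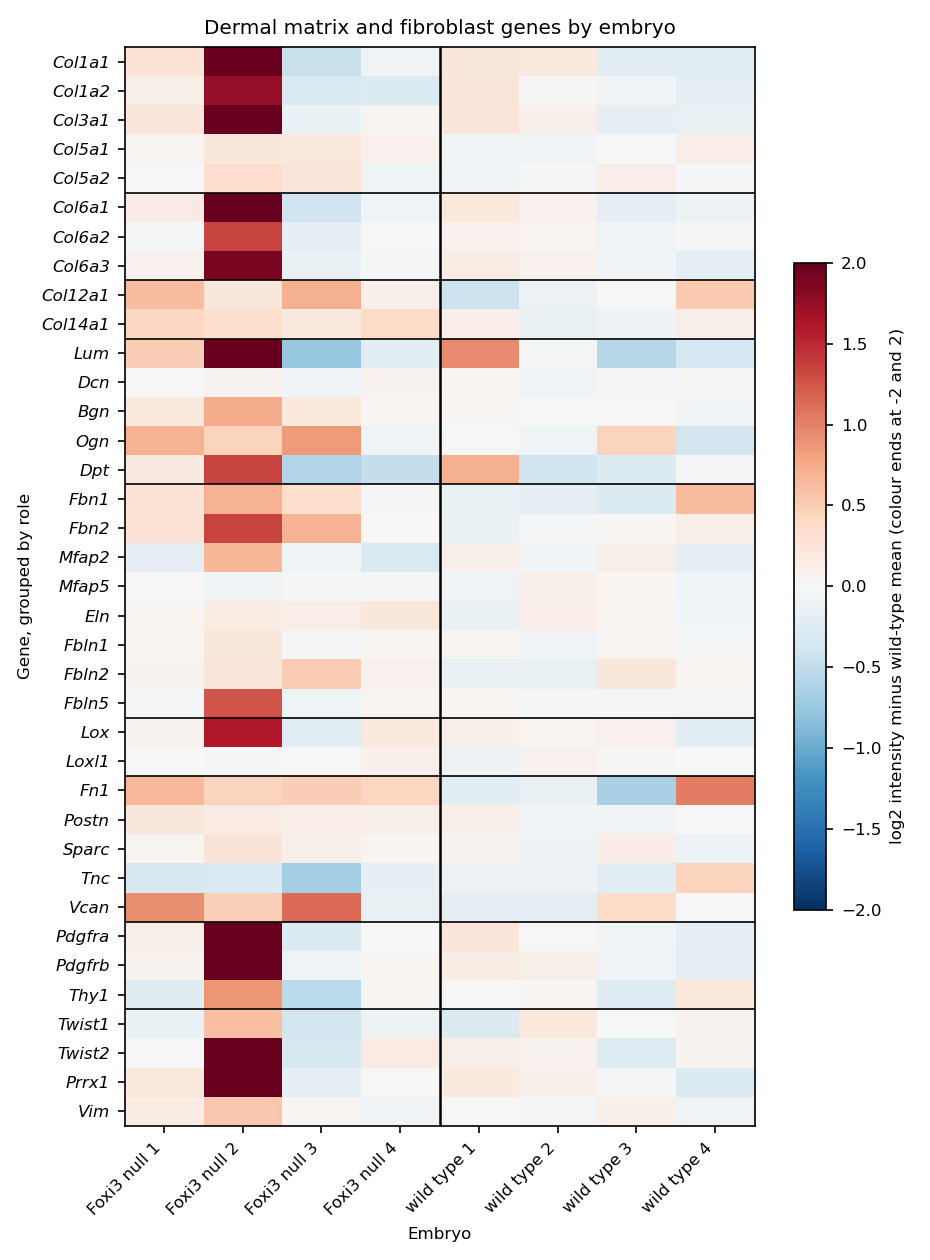
Log2 intensity of each of the 37 genes (rows, by role) in each embryo (columns) minus the mean of the 4 wild-type embryos, with colours ending at -2 and 2. The column of Foxi3 null 2 is deepest red for genes such as Lum, Pdgfra and Col6a1, and pale for genes such as Dcn, Mfap5 and Loxl1.

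The map of differences by embryo shows that the excess was uneven between genes of the same fibres. Promoter sequence is shown for 3 genes that were far higher in Foxi3 null 2 and for Vcan, which was highest in another null embryo. Each line holds the 250 bases before the transcription start, 5′ to 3′ on the gene's strand, from RefSeq on GRCm38.p6. Capitals mark the TATA box (TATAAA), the CCAAT box or the GC box (GGGCGG) on either strand, overlaps included. The windows lie at chr1:91801211-91801460 (plus strand) for Twist2, chr6:4505368-4505617 (plus) for Col1a2, chr5:75152001-75152250 (plus) for Pdgfra and chr13:89742513-89742762 (minus) for Vcan.
Twist2: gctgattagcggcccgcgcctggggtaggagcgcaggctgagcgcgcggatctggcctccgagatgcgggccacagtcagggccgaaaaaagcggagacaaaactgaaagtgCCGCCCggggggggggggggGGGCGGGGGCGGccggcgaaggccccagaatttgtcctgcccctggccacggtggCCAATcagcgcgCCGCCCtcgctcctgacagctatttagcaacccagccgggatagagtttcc
Col1a2: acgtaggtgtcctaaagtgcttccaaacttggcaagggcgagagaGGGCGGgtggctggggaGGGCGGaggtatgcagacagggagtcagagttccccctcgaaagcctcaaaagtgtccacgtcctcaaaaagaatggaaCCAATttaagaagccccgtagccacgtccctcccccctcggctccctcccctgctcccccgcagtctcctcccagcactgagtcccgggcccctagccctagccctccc
Pdgfra: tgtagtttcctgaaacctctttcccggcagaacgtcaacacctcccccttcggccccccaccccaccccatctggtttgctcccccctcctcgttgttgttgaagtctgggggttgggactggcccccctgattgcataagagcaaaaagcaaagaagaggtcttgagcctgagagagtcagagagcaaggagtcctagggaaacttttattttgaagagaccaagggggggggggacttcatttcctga
Vcan: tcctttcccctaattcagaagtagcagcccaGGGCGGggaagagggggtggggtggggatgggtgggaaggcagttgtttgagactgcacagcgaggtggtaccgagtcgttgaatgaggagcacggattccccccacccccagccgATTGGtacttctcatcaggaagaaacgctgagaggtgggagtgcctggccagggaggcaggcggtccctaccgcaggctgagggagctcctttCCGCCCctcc
Twist2, Col1a2 and Vcan hold both a CCAAT box and a GC box, and the Pdgfra window holds none of these boxes. RefSeq windows were found for 23 of the 37 genes, 29 in all. Of these 29, 15 held the GC box (32.7% of 32851 windows of all genes), 7 the CCAAT box (33.8%) and 7 the TATA box (12.4%). The E box CANNTG, the kind of site that Twist factors can bind, was in 15 of 29 (66.2% of all windows). These are counts of letters in a window, for start sites as annotated, and not of bound sites.

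Fibrillar collagens, the rope-like core of the dermis, split into type I and III genes with a large excess in Foxi3 null 2 and type V genes without it. Col1a1 (ENSMUSG00000001506), the alpha 1 chain of type I collagen, read 6.88, 8.64, 6.17 and 6.55 in Foxi3 null 1 to 4, against 6.84, 6.81, 6.40 and 6.40 in wild type 1 to 4. Col1a2 (ENSMUSG00000029661), its partner chain, read 6.32, 7.97, 5.90 and 5.93 in Foxi3 null 1 to 4, against 6.44, 6.23, 6.15 and 6.01 in wild type 1 to 4. Col3a1 (ENSMUSG00000026043), type III collagen of young skin, read 5.86, 7.67, 5.48 and 5.67 in Foxi3 null 1 to 4, against 5.85, 5.73, 5.42 and 5.47 in wild type 1 to 4. Foxi3 null 2 was above every other embryo for all 3, by 4.17-fold, 3.56-fold and 4.08-fold over the mean of the other embryos, while the other null and wild-type embryos overlapped.

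The group difference was 0.45 (SE 0.46) for Col1a1, 0.32 (SE 0.41) for Col1a2 and 0.55 (SE 0.43) for Col3a1, each with a limma adjusted p of 1. Without Foxi3 null 2 these became -0.077, -0.16 and 0.054. Type V collagen, which nucleates the fibrils and sets their diameter, had a smaller excess in Foxi3 null 2. Col5a1 was 7.08 in Foxi3 null 2, against 6.79 to 7.06 in the other embryos, and Col5a2 was 6.13 in Foxi3 null 2, against 5.70 to 6.02 in the other embryos. Their group differences were 0.14 (SE 0.072) and 0.12 (SE 0.11), and Foxi3 null 2 stood only just above the next embryo for both.

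Collagen VI forms beaded filaments between the fibrils and the cell surface, and its 3 chains had a common pattern over the embryos. Col6a1 (ENSMUSG00000001119) read 5.75, 8.0, 5.19 and 5.52 in Foxi3 null 1 to 4, against 5.80, 5.67, 5.39 and 5.48 in wild type 1 to 4. Col6a2 (ENSMUSG00000020241) read 5.59, 6.98, 5.44 and 5.63 in Foxi3 null 1 to 4, against 5.72, 5.67, 5.54 and 5.60 in wild type 1 to 4. Col6a3 (ENSMUSG00000048126) read 5.25, 7.05, 5.04 and 5.14 in Foxi3 null 1 to 4, against 5.31, 5.26, 5.12 and 4.99 in wild type 1 to 4. All 3 were highest in Foxi3 null 2, with wild type 1 next, and lowest or near lowest in Foxi3 null 3.

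The excess of Foxi3 null 2 over the other embryos was 5.48-fold, 2.62-fold and 3.71-fold for Col6a1, Col6a2 and Col6a3. Group differences of 0.53, 0.28 and 0.45 turned to -0.10, -0.078 and -0.026 without that embryo. For 10 of the 13 genes with an excess over 1, the next embryo was Foxi3 null 1 or wild type 1. Among the embryos other than Foxi3 null 2, Foxi3 null 1 was highest for 7.99% of all genes and wild type 1 for 10.4%.

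The fibril-associated collagens, which coat type I fibrils, did not follow Foxi3 null 2. Col14a1 (ENSMUSG00000022371), type XIV collagen, read 7.39, 7.33, 7.17 and 7.36 in Foxi3 null 1 to 4, against 7.11, 6.83, 6.88 and 7.09 in wild type 1 to 4. It was the only gene of the 37 for which all null embryos lay above all wild-type embryos, which held for 0.871% of all genes. With 7 embryos this is easier to meet, and the count was 6 without Foxi3 null 4 (against 2.71% of all genes), 5 without wild type 4 (1.57%), 3 without wild type 1 (1.49%) and 2 without wild type 3 (3.27%). It stayed at 1 without Foxi3 null 1 (1.72%), Foxi3 null 3 (1.6%) or wild type 2 (1.65%). For 0 of the 37 did all nulls lie below all wild types, against 1.07% of all genes. The group means were 7.31 ± 0.10 in Foxi3 null and 6.98 ± 0.14 in wild-type epithelium (SD, n = 4 each). The difference of 0.33 (SE 0.088) had the lowest unadjusted p of the list, 0.00443, and a limma adjusted p of 1. Without Foxi3 null 2 it was 0.33 (SE 0.10, limma unadjusted p = 0.0125), and the remaining nulls still lay above all wild types, as for 1.68% of all genes, while 0 of the 37 had the 3 remaining nulls below all wild types (1.87% of all genes). Col14a1 was then the 1 gene of the 37 at an unadjusted p under 0.05, against 3.24% of all genes.

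Col12a1 (ENSMUSG00000032332), type XII collagen, read 8.23, 7.84, 8.32 and 7.71 in Foxi3 null 1 to 4, against 7.20, 7.49, 7.62 and 8.13 in wild type 1 to 4. Wild type 4 lay within the null range, and the other wild-type embryos lay below every null. The difference of 0.41 (SE 0.21, limma unadjusted p = 0.0774) was 0.59 without wild type 4 (limma unadjusted p = 0.00868, adjusted p = 1).

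Among the small proteoglycans and dermatopontin, which bind collagen fibrils and regulate their assembly, Lum had the largest excess of any gene on the arrays and Dcn almost none. Lum (ENSMUSG00000036446), lumican, read 4.56, 8.81, 3.31 and 3.86 in Foxi3 null 1 to 4, against 5.02, 4.05, 3.50 and 3.73 in wild type 1 to 4. That is 28-fold above the mean of the other embryos in Foxi3 null 2, and wild type 1 came next. Its group difference of 1.06 (SE 1.06) was -0.16 (SE 0.40) without Foxi3 null 2, and the groups overlapped in either case. Dcn (ENSMUSG00000019929), decorin, read 11.36, 11.45, 11.30 and 11.44 in Foxi3 null 1 to 4, against 11.43, 11.32, 11.34 and 11.39 in wild type 1 to 4. Embryos differed little for Dcn, and Foxi3 null 2 and Foxi3 null 4 were nearly level.

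Dpt, dermatopontin, which joins decorin to collagen fibrils, was 4.85 in Foxi3 null 2, against 2.91 to 4.20 in the other embryos, and wild type 1 came next. Its difference of 0.12 (SE 0.42) was -0.29 (SE 0.28) without Foxi3 null 2. Bgn, biglycan, was 7.86 in Foxi3 null 2, against 7.06 to 7.33 in the other embryos. Its means were 7.41 ± 0.31 in Foxi3 null and 7.12 ± 0.04 in wild-type epithelium (SD, n = 4 each). Its difference of 0.30 (SE 0.14) was 0.15 (SE 0.075) without Foxi3 null 2, with Foxi3 null 4 then level with wild type 1. Ogn, osteoglycin, read 5.66, 5.41, 5.82 and 4.89 in Foxi3 null 1 to 4, against 4.98, 4.89, 5.41 and 4.61 in wild type 1 to 4. Foxi3 null 3 and Foxi3 null 1 were the high embryos for Ogn, with a difference of 0.47 (SE 0.22, limma unadjusted p = 0.0609), and the groups overlapped.

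Elastic fibre genes were mixed, with the microfibril and scaffold genes Fbn2 and Fbln5 highest in Foxi3 null 2 and elastin itself not. Fbn2 (ENSMUSG00000024598), the fibrillin of embryonic microfibrils, read 5.56, 6.61, 5.96 and 5.28 in Foxi3 null 1 to 4, against 5.13, 5.24, 5.30 and 5.38 in wild type 1 to 4. Its difference was 0.59 (SE 0.25, limma unadjusted p = 0.0412, adjusted p = 1), and 0.33 (unadjusted p = 0.0597) without Foxi3 null 2. Foxi3 null 3 was next highest, and Foxi3 null 4 lay among the wild-type embryos. Fbn1 (ENSMUSG00000027204), fibrillin-1, read 5.91, 6.33, 5.99 and 5.61 in Foxi3 null 1 to 4, against 5.49, 5.44, 5.36 and 6.25 in wild type 1 to 4. Wild type 4 stood beside the highest null for Fbn1, apart from the other wild types. Its difference of 0.33 was 0.20 without Foxi3 null 2 and 0.53 without wild type 4 (limma unadjusted p = 0.00826, adjusted p = 1).

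Fbln5 (ENSMUSG00000021186), fibulin-5, which tethers elastin to microfibrils, was 5.89 in Foxi3 null 2, against 4.54 to 4.69 in the other embryos. That was a 2.41-fold excess over embryos that lay close together, and the difference of 0.29 was -0.026 without Foxi3 null 2. Mfap2, a microfibril-associated protein, was 8.54 in Foxi3 null 2, against 7.59 to 8.0 in the other embryos, and its difference of 0.028 was -0.18 without Foxi3 null 2. Fbln1, fibulin-1, was 10.25 in Foxi3 null 2, against 9.95 to 10.08 in the other embryos, with a difference of 0.073 (SE 0.073). The other elastic fibre genes did not stand highest in Foxi3 null 2. Fbln2, fibulin-2, ranged over 7.33 to 7.77 in Foxi3 null and 7.11 to 7.49 in wild-type embryos, with a difference of 0.23 (SE 0.12). Eln, elastin, ranged over 6.44 to 6.62 in Foxi3 null and 6.25 to 6.53 in wild-type embryos, with a difference of 0.14 (SE 0.078). Mfap5, another microfibril-associated protein, ranged over 4.36 to 4.45 in Foxi3 null and 4.34 to 4.55 in wild-type embryos, with a difference of -0.029 (SE 0.068).

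The crosslinking enzymes parted in the same way. Lox (ENSMUSG00000024529), lysyl oxidase, read 5.53, 7.05, 5.24 and 5.66 in Foxi3 null 1 to 4, against 5.56, 5.49, 5.55 and 5.23 in wild type 1 to 4. Foxi3 null 2 was 3.00-fold above the mean of the others, and the difference of 0.41 (SE 0.34) was 0.019 without it. Loxl1, a relative that acts on elastin, ranged over 5.21 to 5.34 in Foxi3 null and 5.14 to 5.32 in wild-type embryos and was not highest in Foxi3 null 2, with a difference of 0.018 (SE 0.065).

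**Figure D2:**
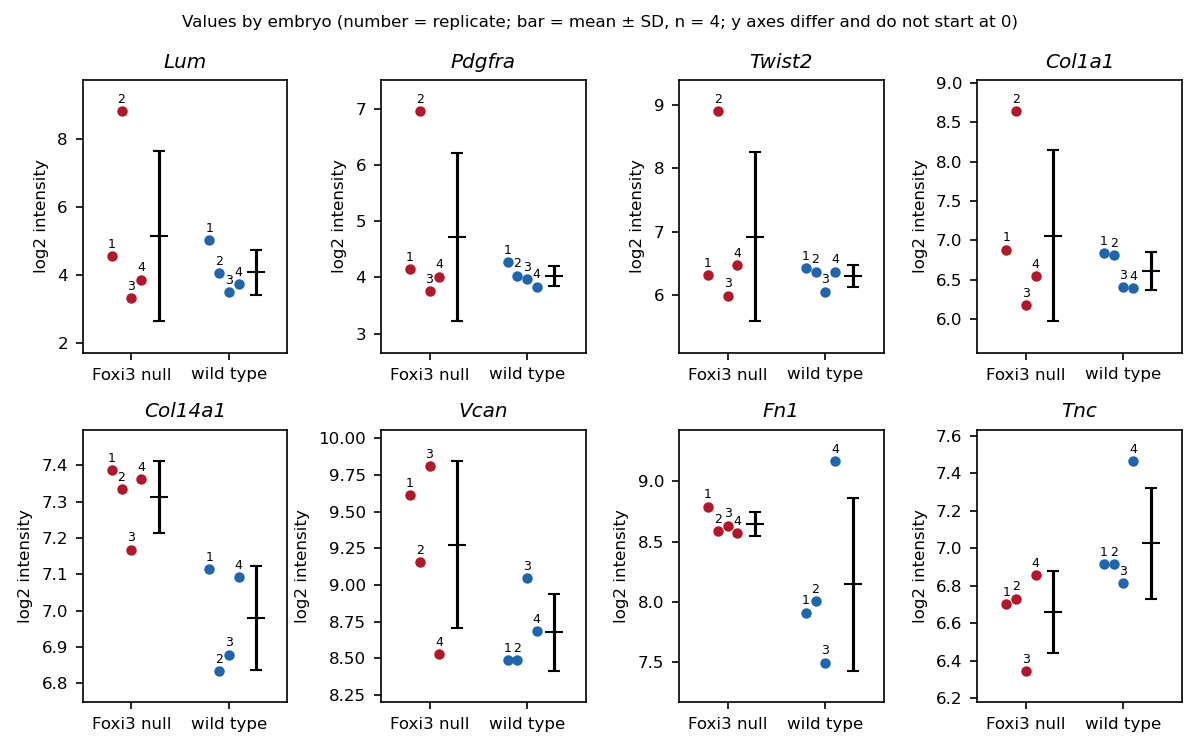
Log2 intensity of 8 genes in each embryo, labelled by replicate number, Foxi3 null (red) left of wild type (blue), with the mean and SD beside each group; axes differ and do not start at 0. In the upper row (Lum, Pdgfra, Twist2 and Col1a1) Foxi3 null 2 stands alone, while in the lower row (Col14a1, Vcan, Fn1 and Tnc) it lies among the other nulls and wild type 4 is high for Fn1 and Tnc.

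The adhesive and matricellular genes showed little of the Foxi3 null 2 pattern, as the strips for Vcan, Fn1 and Tnc show, with 1 of 5, Sparc, highest there. Fn1 (ENSMUSG00000026193), fibronectin, read 8.79, 8.59, 8.63 and 8.57 in Foxi3 null 1 to 4, against 7.91, 8.0, 7.49 and 9.17 in wild type 1 to 4. The nulls lay within a narrow range, above 3 wild-type embryos and below wild type 4. The difference was 0.50 (SE 0.30) with limma adjusted p = 1. Without wild type 4 it was 0.84, with an unadjusted p of 0.000166 and a limma adjusted p of 0.434, and in that setting 5 of the 37 genes had an unadjusted p under 0.05, against 3.11% of all genes.

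Tnc (ENSMUSG00000028364), tenascin-C, an anti-adhesive glycoprotein of developing skin, was the 1 gene of the 37 at an unadjusted p under 0.05 with a lower mean in the nulls. It read 6.70, 6.73, 6.35 and 6.86 in Foxi3 null 1 to 4, against 6.92, 6.91, 6.81 and 7.47 in wild type 1 to 4. The difference was -0.37 (SE 0.16, limma unadjusted p = 0.0469, adjusted p = 1), and -0.22 (unadjusted p = 0.103) without wild type 4. Foxi3 null 4 lay above wild type 3, so the groups overlapped, and wild type 4 was the highest embryo.

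Wild type 4, high for Fn1, Tnc, Fbn1 and Col12a1, also had the highest mean of 17 dissociation stress genes, immediate-early and heat shock genes that handling induces. That list mean was 7.40, 7.46, 7.54 and 8.49 in Foxi3 null 1 to 4, against 7.72, 7.48, 7.67 and 9.38 in wild type 1 to 4. Foxi3 null 4, the next in stress mean, had Fn1 (8.57) close to the other nulls. It was the highest null for Tnc (6.86) and the lowest null for Fbn1 (5.61) and Col12a1 (7.71). The part of stress in these values was not tested.

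Vcan (ENSMUSG00000021614), the large hyaluronan-binding proteoglycan versican, read 9.61, 9.16, 9.81 and 8.53 in Foxi3 null 1 to 4, against 8.49, 8.49, 9.05 and 8.69 in wild type 1 to 4. Foxi3 null 3 and Foxi3 null 1 were highest, and Foxi3 null 4 was near the lowest wild types. The difference was 0.60 (SE 0.26, limma unadjusted p = 0.0486, adjusted p = 1), and 0.64 (unadjusted p = 0.0642) without Foxi3 null 2. Postn (ENSMUSG00000027750), periostin, a collagen-binding matricellular protein, read 11.19, 11.13, 11.10 and 11.08 in Foxi3 null 1 to 4, against 11.08, 10.90, 10.90 and 10.97 in wild type 1 to 4. Its difference was 0.16 (SE 0.066, limma unadjusted p = 0.0342, adjusted p = 1), and the lowest null and the highest wild type were level. Sparc, osteonectin, was 10.37 in Foxi3 null 2, against 10.01 to 10.27 in the other embryos, with a difference of 0.12 (SE 0.084).

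Cell surface genes of fibroblasts included some of the clearest cases of a high Foxi3 null 2. Pdgfra (ENSMUSG00000029231), the receptor of dermal fibroblast progenitors whose promoter window is given above, read 4.15, 6.95, 3.75 and 4.02 in Foxi3 null 1 to 4, against 4.27, 4.03, 3.97 and 3.84 in wild type 1 to 4. Pdgfrb (ENSMUSG00000024620), the receptor of perivascular mesenchyme and fibroblasts, read 4.56, 6.66, 4.41 and 4.54 in Foxi3 null 1 to 4, against 4.64, 4.61, 4.42 and 4.30 in wild type 1 to 4. Foxi3 null 2 stood 7.70-fold and 4.48-fold above the mean of the others, which for Pdgfrb all lay within 4.30 to 4.64. The group differences of 0.69 (SE 0.62) and 0.55 (SE 0.45), both at a limma adjusted p of 1, were -0.057 and 0.0097 without Foxi3 null 2. Thy1, the surface glycoprotein CD90 of fibroblasts and neurons, read 6.09, 7.21, 5.81 and 6.38 in Foxi3 null 1 to 4, against 6.34, 6.37, 6.09 and 6.55 in wild type 1 to 4. Its difference of 0.036 was -0.24 without Foxi3 null 2, and the other 3 nulls overlapped the wild types.

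Transcription factors of dermal mesenchyme were highest in Foxi3 null 2 as well. Twist2 (ENSMUSG00000007805), also called Dermo1, read 6.31, 8.90, 5.99 and 6.47 in Foxi3 null 1 to 4, against 6.42, 6.36, 6.05 and 6.36 in wild type 1 to 4. Prrx1 (ENSMUSG00000026586), a homeodomain factor of mesenchyme, read 4.26, 6.13, 3.86 and 4.04 in Foxi3 null 1 to 4, against 4.25, 4.15, 4.03 and 3.77 in wild type 1 to 4. Twist1, the relative of Twist2, read 4.85, 5.59, 4.62 and 4.88 in Foxi3 null 1 to 4, against 4.70, 5.20, 4.99 and 5.05 in wild type 1 to 4. For Twist2 the excess of Foxi3 null 2 was 6.14-fold, for Prrx1 4.22-fold and for Twist1 1.61-fold, and wild type 2 came next for Twist1. The group differences were 0.62, 0.52 and -0.0010, and without Foxi3 null 2 -0.045, 0.0044 and -0.20. Vim, the intermediate filament protein of mesenchymal cells, was 11.20 in Foxi3 null 2, against 10.58 to 10.81 in the other embryos, a 1.44-fold excess, with a difference of 0.16 (SE 0.13).

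**Figure D3:**
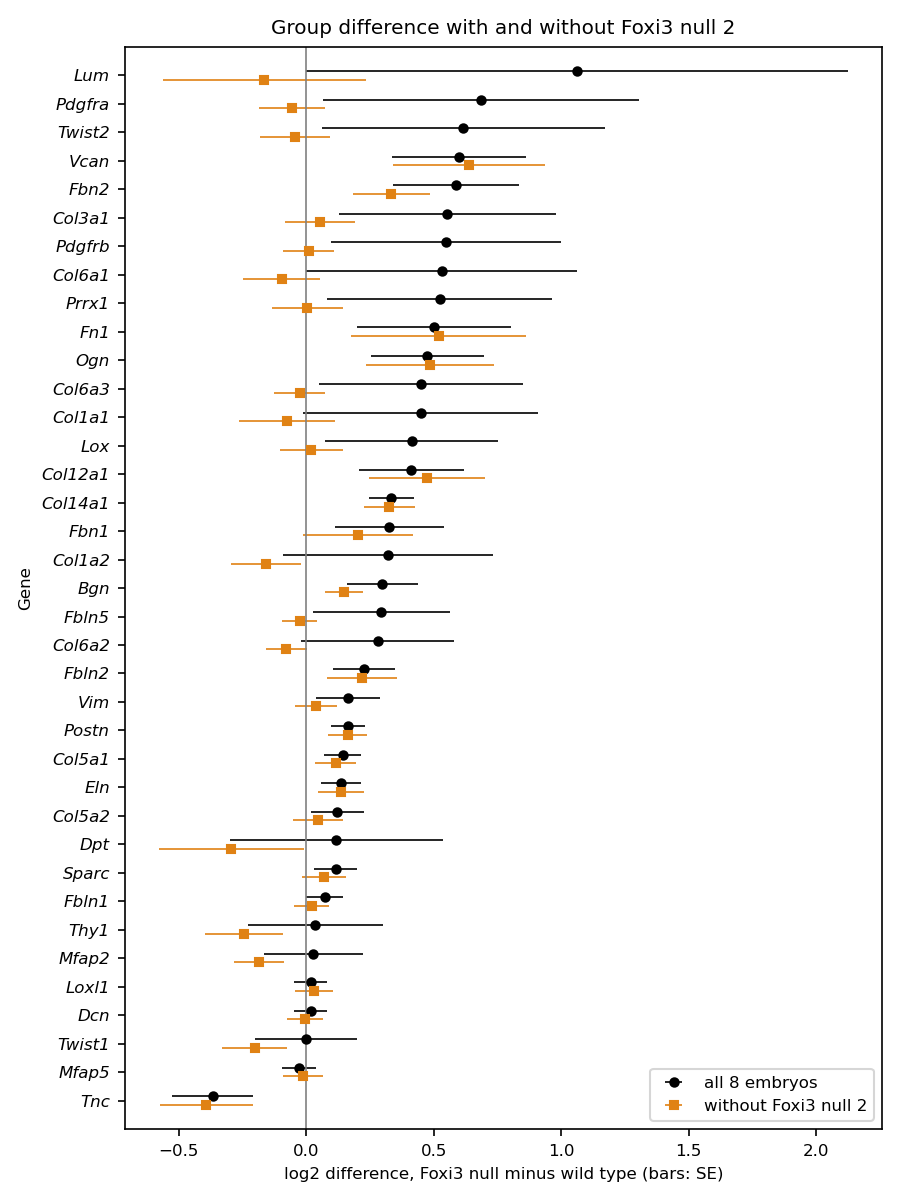
Group difference (log2 intensity, Foxi3 null minus wild type) of each of the 37 genes with its SE, for all 8 embryos (black circles) and without Foxi3 null 2 (orange squares). Genes such as Lum, Pdgfra and Twist2 move to about 0 without that embryo, while Col14a1, Vcan, Fn1, Ogn and Col12a1 stay near their values.

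The plot of differences with and without Foxi3 null 2 shows single genes, and their medians by role are given here, with a wide range within some roles. Without that embryo the median difference was -0.078 for collagen VI, 0.047 for fibrillar collagens, -0.057 for surface genes and -0.020 for transcription factors and Vim. It was 0.40 for the fibril-associated collagens, 0.16 for the adhesive and matricellular genes, -0.0037 for the small proteoglycans and dermatopontin, 0.079 for the elastic fibre genes and 0.025 for the crosslinking enzymes. With all embryos these medians were 0.45, 0.32, 0.55, 0.34, 0.37, 0.16, 0.30, 0.18 and 0.22, in the same order. Without Foxi3 null 2 the differences ran from -0.39 (Tnc) to 0.64 (Vcan) among the adhesive genes, from -0.29 (Dpt) to 0.49 (Ogn) among the proteoglycans and from -0.18 (Mfap2) to 0.33 (Fbn2) among the elastic fibre genes, so that roles overlapped. Among the 7 embryos other than Foxi3 null 2, the lowest value stood in Foxi3 null 3 for 13 genes (and for 23.3% of all genes) and in wild type 4 for 8 (18.1%). Foxi3 null 3 also had the highest value for 8 genes (13.9% of all genes), as had wild type 1 (10.4%).

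Genes that make, process and turn over this matrix were counted on separate lists. Of 23 measured genes of collagen synthesis and processing, 0 passed over all genes, 14 were above 0 and the median difference was 0.056. Serpinh1, the collagen chaperone HSP47, was the 1 of 23 with all nulls above all wild types (0.871% of all genes). It ranged over 7.63 to 7.84 in Foxi3 null and 7.36 to 7.62 in wild-type embryos, with a difference of 0.24 (SE 0.079, limma unadjusted p = 0.0152, adjusted p = 1). P4ha1, a collagen prolyl hydroxylase, was at 0.23, Plod3, a lysyl hydroxylase, at 0.16, and Lepre1, a prolyl 3-hydroxylase, at 0.16. Foxi3 null 2 was the highest embryo for 12 of 23 genes, and by more than 1 for Fkbp10, a collagen chaperone (7.13 in Foxi3 null 2, against 5.89 to 6.12 in the other embryos), named here after its value was seen.

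Of 15 matrix turnover genes 0 passed, 13 were above 0 and the median difference was 0.16, or 0.043 without Foxi3 null 2. The stromelysin-3 gene Mmp11 was at 0.37 (SE 0.14, limma unadjusted p = 0.0275), the gelatinase genes Mmp2 and Mmp9 were at 0.27 and 0.18, and the inhibitor gene Timp1 was at 0.16. Of 31 other interstitial matrix genes 0 passed, and the median difference was 0.0049, with 16 above 0. Ltbp3, a latent TGF-beta binding protein, was the 1 of 31 with all nulls above all wild types (0.871% of all genes). Its difference was 0.14 (SE 0.055, limma unadjusted p = 0.0322). Fmod, fibromodulin, was at 0.35, Efemp2, fibulin-4, at 0.25 and Col4a1 of basement membranes at 0.15. Foxi3 null 2 was highest for 5 of 15 turnover genes and 9 of 31 interstitial genes, against 26 of the 37 and 7.72% of all genes.

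Markers of other cell types were read beside these genes, and no marker gene passed over all genes. Dermal condensate genes, of the mesenchyme under hair placodes, had a mean of 5.97 in Foxi3 null 2, against 5.16 to 5.39 in the other embryos, and 9 of 13 were highest there. Crabp1, a retinoic acid binding protein, was 10.73 in Foxi3 null 2, against 6.56 to 7.38 in the other embryos. Rspo3, a Wnt enhancer, was 6.29 in Foxi3 null 2, against 4.32 to 4.83 in the other embryos, and Tbx18 was 5.10 in Foxi3 null 2, against 3.69 to 4.01 in the other embryos. Cxcr4, a chemokine receptor, was at a group difference of 0.35 (limma unadjusted p = 0.0197). Crabp1, Rspo3 and Tbx18 were the 3 of 13 for which Foxi3 null 2 exceeded every other embryo by more than 1 (0.279% of all genes). Over the 13, the median excess of Foxi3 null 2 over the mean of the other embryos was 0.42, against 0.68 over the 37 matrix genes. Foxi3 null 2 thus stood far apart for some condensate genes and not for the whole list.

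Dermal fibroblast subset genes were highest in Foxi3 null 2 for 4 of 18, and their mean was 5.98 in Foxi3 null 2, against 5.64 to 5.80 in the other embryos. Tbx15, a factor of dorsal dermis, was 6.32 in Foxi3 null 2, against 3.42 to 4.01 in the other embryos. Dpp4 and Lrig1, marks of papillary fibroblasts that epidermal cells can share, lay within the other embryos, with Dpp4 at 8.38 against 8.13 to 8.82 and Lrig1 at 9.10 against 8.79 to 9.27. Meox2 was the 1 of 18 with all nulls above all wild types (0.871% of all genes), over 3.38 to 3.52 in Foxi3 null and 3.18 to 3.26 in wild-type embryos. Its difference was 0.21 (SE 0.059, limma unadjusted p = 0.00533). These dim values lay below all sample medians and may be background.

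Schwann cell and nerve genes had a mean of 5.86 in Foxi3 null 2, against 5.28 to 5.42 in the other embryos, with Stmn2 of neurons at 6.61 against 2.76 to 3.34, and Sox10 of Schwann cells at 6.26 against 6.11 to 6.29. Endothelium genes had a mean of 4.80 in Foxi3 null 2, against 4.50 to 4.77 in the other embryos, with Cdh5 at 5.73 against 4.55 to 5.03. Leukocyte genes had a mean of 4.76 in Foxi3 null 2, against 4.42 to 4.68 in the other embryos, with Ptprc at 2.92 against 2.75 to 2.98. These 3 list means were highest in Foxi3 null 2, by less than the condensate mean, where 5 of 11 nerve, 5 of 12 endothelium and 4 of 11 leukocyte genes were highest, against 7.72% of all genes. Of the defining genes named here, Stmn2 and Cdh5 were above every other embryo there, and Sox10 and Ptprc lay within them.

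Pericyte, melanoblast, muscle and cartilage lists did not single out Foxi3 null 2. The pericyte and smooth muscle mean was 5.89 in Foxi3 null 2, against 5.81 to 5.98 in the other embryos, and the melanoblast mean was 6.69 in Foxi3 null 2, against 6.50 to 6.86 in the other embryos. The skeletal muscle mean was 5.07 in Foxi3 null 2, against 4.92 to 5.32 in the other embryos, and the chondrocyte mean was 5.21 in Foxi3 null 2, against 5.19 to 5.42 in the other embryos. Adipocyte genes had a mean of 5.57 in Foxi3 null 2, against 5.31 to 5.59 in the other embryos, and erythroid genes had 3.85 in Foxi3 null 2, against 3.63 to 3.86 in the other embryos. In these 6 lists, Foxi3 null 2 was highest for 1 adipocyte gene and 2 erythroid genes. The basal epidermis mean was 10.09 in Foxi3 null 2, against 10.09 to 10.19 in the other embryos, and the suprabasal mean was 10.53 in Foxi3 null 2, against 10.10 to 10.88 in the other embryos. Between the groups, list means were 4.92 to 5.07 in Foxi3 null and 5.0 to 5.32 in wild-type embryos for muscle and 5.16 to 5.97 in Foxi3 null and 5.22 to 5.39 in wild-type embryos for condensate. Of the muscle genes 11 of 11 were below 0 in the group difference, none past the test, with a median of -0.14. At a limma unadjusted p under 0.05, 3 of them were lower in the nulls (2.03% of all genes). All nulls lay below all wild types for 1 of them (1.07% of all genes). The suprabasal list means ran over 10.10 to 10.63 in Foxi3 null and 10.31 to 10.88 in wild-type embryos, with 12 of 12 genes below 0 in the group difference, none past the test, a median of -0.15 and the lowest at -1.19 for Ivl, involucrin of the cornified envelope. Of the 17 dissociation stress genes 16 were below 0, none past the test, with a median of -0.32. The groups overlapped in the muscle, suprabasal and stress list means, and the part of these lists in the differences of the 37 genes was not tested. The part of carried-over dermal, vascular or nerve cells in the values of Foxi3 null 2 was not tested.

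**Figure D4:**
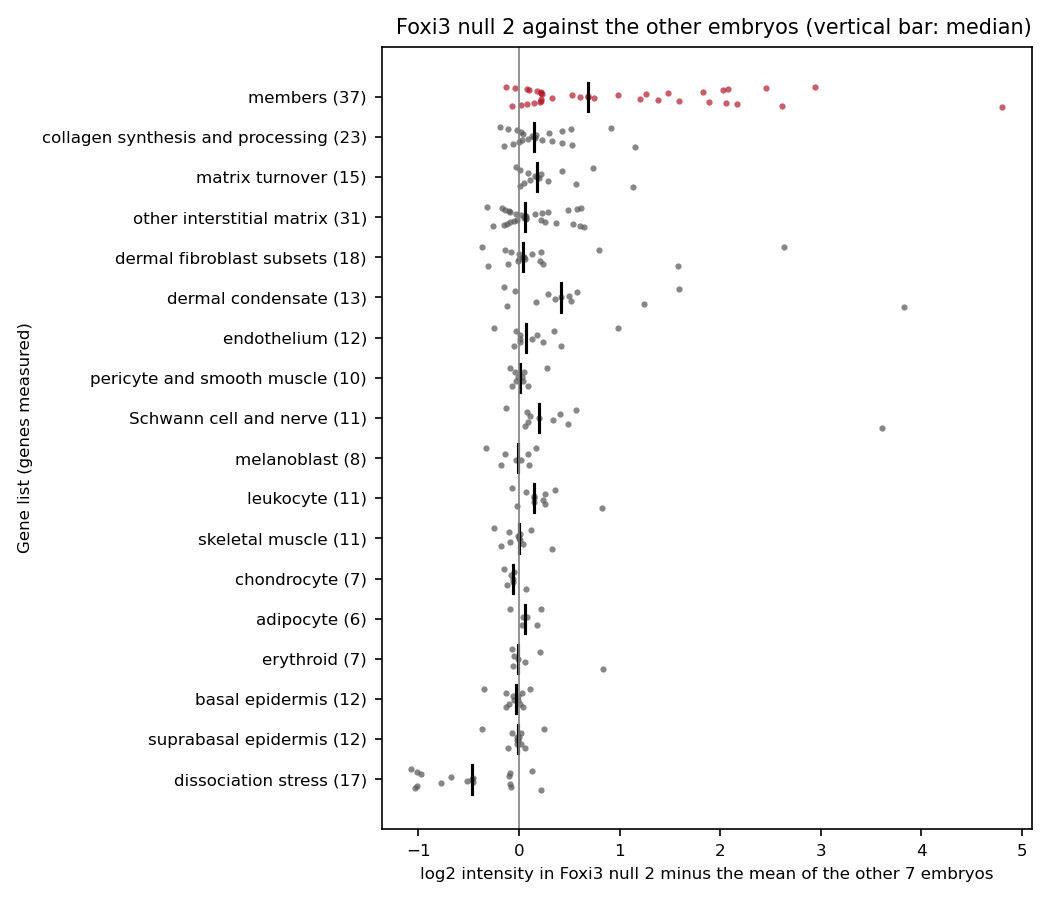
Log2 intensity in Foxi3 null 2 minus the mean of the other 7 embryos for each gene (points) of the 37 genes (top, red) and of each other list (grey), with the list median as a bar. The 37 genes have a median of 0.68 and reach 4.81, the condensate list is next, and the basal and suprabasal epidermis lists lie around 0.

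The plot of lists against Foxi3 null 2 places the 37 genes above each other list by their median, with single genes of the condensate, subset and nerve lists far out. Of genes outside the 37, the 10 of largest excess in Foxi3 null 2 were Crabp1, Stmn2, Vcam1, Cdh11, Ednra, Cpa3, Pth1r, Osr1, Tbx15 and Abca9. Vcam1, an adhesion molecule, was 6.74 in Foxi3 null 2, against 3.01 to 3.50 in the other embryos. Cdh11, the mesenchymal cadherin, was 8.73 in Foxi3 null 2, against 4.67 to 5.67 in the other embryos. Cpa3, a protease of mast cells, was 8.09 in Foxi3 null 2, against 3.47 to 5.69 in the other embryos, with a wide spread of the other embryos. Ednra, the endothelin receptor, exceeded the next embryo by 2.48, Pth1r, the receptor of parathyroid hormone-related protein, by 2.34, Osr1 by 2.33 and Abca9 by 2.18. Several are genes of mesenchymal cells, like the 37, and none passed between the groups (limma adjusted p = 1 for each).

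The genes most like the mean of the 37 over the 8 embryos, among those with a mean of at least 6, were Crabp1, Myadm, Lgals1, Vps52 and Crip1. Pearson's r was 0.99 for Crabp1, 0.99 for Myadm, 0.99 for Lgals1, 0.99 for Vps52 and 0.98 for Crip1. Spearman's rho was 0.57, 0.64, 0.67, 0.76 and 0.57 in that order. The 8 points share Foxi3 null 2 as an extreme, and without it r was 0.76, 0.65, 0.42, 0.60 and 0.37 for the same genes. Lgals1, galectin-1, was 10.60 in Foxi3 null 2, against 9.11 to 9.30 in the other embryos. Crip1, a LIM protein, was 8.69 in Foxi3 null 2, against 6.16 to 6.61 in the other embryos.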

How the data were processed

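RNA of back skin epithelium from 8 embryos was hybridised to Affymetrix mouse exon arrays, per the file headers. The deposited values are log2 intensities that the authors obtained with RMA (background correction, normalisation and probe summary), per the submitters' processing notes. The RMA version, probe annotation and genome build are not named in any source used here. Values per embryo came from the deposited table whose columns are samples, and gene names from the table that pairs the same probe sets with symbols. In the table of names, 8 array columns match no sample label and were not used.

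Groups came from sample titles. The 26165 genes were fitted in R 4.3.3 with limma 3.58.1 (lmFit, then eBayes), two-sided, without covariates, with Benjamini-Hochberg adjustment over all genes and a threshold of 0.05. Steps were tested on simulated data. The 37 genes and the other lists were chosen with earlier results of these data known. Named genes were the 37, up to 4 of lowest unadjusted p per list with defining markers, the 10 others of largest excess in Foxi3 null 2, and the 5 of highest Pearson r with the mean of the 37. Same-numbered embryos correlated at 0.13, -0.044, 0.49 and 0.36 in their deviations from the group means. No label ties a number to a litter, so the main fit took no pairs. Alternatives were other scalings, filters, weights, moderation, a sex covariate from Ddx3y, a replicate block and leaving out each embryo. Promoters are RefSeq windows matched by symbol, without UTR bases.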

Additional observations from a re-analysis of the deposited data

Results flagged for a closer look

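Some embryos stood far from the rest of their group, by Dixon's test for 4 samples. Its measure is the gap to the nearest embryo as a share of the whole range of the group. The test was passed by 10 of 76 values, where about 4 would pass if the values were separate, at 1 in 20 groups. They are not separate, since 7 of the 10 come from Foxi3 null 2, among them the mean over the 37 genes. The genes were also chosen with earlier results known, so the count does not measure chance. Foxi3 null 2 stood high with gap shares of 0.875 for Col6a2, 0.895 for Col6a3, 0.894 for Fbln5, 0.876 for Pdgfra, 0.933 for Pdgfrb and 0.835 for Twist2, and of 0.855 for the mean over the 37 genes. Wild type 4 stood high for Fbn1 (0.856) and Tnc (0.845). Wild type 3 stood low for Twist2 (0.838), at 6.05 against 6.36 to 6.42 in the other wild-type embryos.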

How the results depend on the processing

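In all 18 alternatives 0 of the 37 genes passed over all genes, also at an adjusted p under 0.1. Of all genes 3 passed with all embryos and 0 to 4 in the alternatives, being 0 with the replicate block and without wild type 1, 2 or 4, where 0 members is what every gene gave. Among the 37 the lowest adjusted p was 0.215 (Ogn), with a replicate block. At an unadjusted p under 0.05 the count was 5 of 37 with all embryos (3.72% of all genes), 8 with array weights (6.83%), 8 with the replicate block (8.94%), and 1 (without Foxi3 null 2, 3.24%, or 3, 2.7%) to 8 (without Foxi3 null 4, 8.39%) on leaving out each embryo in turn. The median difference was 0.30 with all embryos and 0.019 (without Foxi3 null 2) to 0.37 on leaving out embryos. The replicate block cannot change this median, since each number has a null and a wild type. The genes with all nulls above all wild types numbered 1 with all embryos (0.871% of all genes) and 1 to 6 (without Foxi3 null 4, 2.71%) on leaving out embryos. The counts at an unadjusted p and without overlap were added after the data were seen. Of the 37 genes 21 kept the sign of their difference throughout, and 16 changed it at least once, 13 of them without Foxi3 null 2. The replicate block, the moderation, the handling of rows, the intensity filter and the looser threshold could not change a sign. Leaving out each embryo gave differences of -0.077 to 0.74 for Col1a1, -0.16 to 0.53 for Col1a2, -0.10 to 0.84 for Col6a1, -0.078 to 0.44 for Col6a2, -0.026 to 0.64 for Col6a3, -0.0037 to 0.047 for Dcn, -0.29 to 0.35 for Dpt, -0.026 to 0.42 for Fbln5, and of -0.014 to 0.046 for Loxl1, -0.16 to 1.67 for Lum, -0.18 to 0.13 for Mfap2, -0.059 to 0.011 for Mfap5, -0.057 to 1.01 for Pdgfra, -0.24 to 0.22 for Thy1, -0.20 to 0.12 for Twist1 and -0.045 to 0.93 for Twist2. The sex covariate gave -0.026 for Dpt and -0.050 for Thy1, and Twist1 was at 0.021 with array weights, 0.017 after median centring and 0.0069 after quantile normalisation. The cause of these changes was not tested. Foxi3 null 1, 3 and 4 each correlated best with the wild type of their own number (0.13, 0.49 and 0.36), and Foxi3 null 2 with wild type 1 (0.16). Of the wild types, 3 and 4 were closest to their own number, and 1 and 2 to Foxi3 null 2 (0.16) and 4 (0.26). With no label for litters the block rests on numbers alone, and a shared litter or batch was not tested. Each of the 37 symbols has 1 row, so averaging rows changed nothing, and 28 of the 37 remain among genes above the median intensity. The planned comparison with the other deposited table was not run, because its array columns match no sample label.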
